A study of Mus musculus with 56 samples.

Results

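The genes examined were 6 NK receptor genes, Klrk1, Klrd1, Klrc1, Ncr1, Klrb1c and Nkg7, out of 47937 genes listed in each count table. They were taken by symbol and not by their values, and all 6 were found. Bulk RNA-seq read counts were available for mouse CD4+ T cells from spleen and lymph nodes, on the C57BL/6 background, polarized in vitro for 4 days into TH1, TH2, TH17 or Treg cells. Per the study's methods, the cultures were started from naive CD4+ cells purified with a negative-selection kit. In one experiment the cells carried Odc flox/flox alleles and Cre driven by the CD4 promoter (labelled ODC_KO, here Odc-/-, 15 libraries), or came from control mice without Cre (ODC_WT, 16 libraries). In the other they carried Dohh flox/flox alleles with the same Cre (DOHH_KO, here Dohh-/-, 12 libraries) or came from their own controls without Cre (DOHH_WT, 12 libraries). Every group held 4 libraries in the Odc experiment, except 3 for Odc-/- TH2, and 3 in the Dohh experiment. ODC, ornithine decarboxylase, makes putrescine, from which the cell builds spermidine, and DOHH, deoxyhypusine hydroxylase, completes the spermidine-derived hypusine residue of the translation factor eIF5A. CD4-Cre acts in the thymus while T cells still carry both CD4 and CD8, so it is not restricted to mature CD4+ cells. The labels do not say whether the libraries of a group came from separate mice, so p-values measure only the spread between these libraries, which may be technical.

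NK receptors are read by the cell as a balance of activating and inhibitory signals. Klrk1 encodes NKG2D, an activating receptor for stress-induced ligands that signals through the adaptors DAP10 and DAP12. Klrd1 encodes CD94 and Klrc1 encodes NKG2A, which pair into an inhibitory receptor for the nonclassical MHC molecule Qa-1. Ncr1 encodes NKp46, an activating receptor of NK cells and some innate lymphoid cells, and Klrb1c encodes NK1.1, the classical NK surface marker of C57BL/6 mice. Nkg7 encodes a membrane protein of cytotoxic granules. NKG2D and CD94/NKG2A are also borne by activated CD8+ T cells and γδ T cells, whereas conventional helper T cells carry little of them.

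Klrk1, Klrd1, Klrc1 and Klrb1c lie in the NK gene complex on chromosome 6, and Ncr1 and Nkg7 lie on chromosome 7 (mm10, GENCODE annotation). Klrd1 occupies chr6:129591782-129598775 on the plus strand, beside Klrk1 at chr6:129610323-129623864 and Klrc1 at chr6:129666015-129678973, both on the minus strand. Klrb1c lies at chr6:128778485-128789215 on the minus strand, Ncr1 at chr7:4337724-4345164 and Nkg7 at chr7:43437073-43438249, both on the plus strand. Of the exon length of Klrb1c, 13.9% overlaps the gene Gm44511 on the same strand, and exons of the other 5 members overlap no other gene. Klrb1c has close relatives in Klrb1a and Klrb1b, as Klrc1 has in Klrc2 and Klrc3. Reads may be split between near-identical copies, so the counts of these genes, and above all those of Klrb1c, are uncertain.

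Promoter windows running from 250 bases before to 50 bases after the annotated start were matched for 5 of the 6 genes, all but Klrd1 (RefSeq, build GRCm38.p6). The windows of Klrk1, Klrc1 and Nkg7 are printed because these genes were well covered by reads and were called higher in every Dohh-/- subset. Capitals mark the RUNX letters TGTGGT, or ACCACA where the motif lies on the other strand, and in Nkg7 also the T-box letters AGGTGTGA. The windows are chr6:129623815-129624114 for Klrk1 and chr6:129678924-129679223 for Klrc1, both written along the minus strand, and chr7:43436888-43437187 for Nkg7, along the plus strand.
Klrk1: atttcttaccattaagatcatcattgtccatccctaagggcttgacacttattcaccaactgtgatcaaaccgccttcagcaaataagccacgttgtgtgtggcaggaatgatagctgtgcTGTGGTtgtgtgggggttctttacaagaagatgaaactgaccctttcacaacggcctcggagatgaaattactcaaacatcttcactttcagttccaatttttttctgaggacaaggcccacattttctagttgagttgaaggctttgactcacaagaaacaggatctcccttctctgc
Klrc1: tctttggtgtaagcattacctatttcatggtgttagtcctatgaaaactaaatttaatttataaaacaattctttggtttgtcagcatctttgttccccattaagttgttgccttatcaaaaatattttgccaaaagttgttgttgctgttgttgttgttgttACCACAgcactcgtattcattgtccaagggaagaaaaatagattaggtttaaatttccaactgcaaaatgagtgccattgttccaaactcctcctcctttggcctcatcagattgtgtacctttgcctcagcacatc
Nkg7: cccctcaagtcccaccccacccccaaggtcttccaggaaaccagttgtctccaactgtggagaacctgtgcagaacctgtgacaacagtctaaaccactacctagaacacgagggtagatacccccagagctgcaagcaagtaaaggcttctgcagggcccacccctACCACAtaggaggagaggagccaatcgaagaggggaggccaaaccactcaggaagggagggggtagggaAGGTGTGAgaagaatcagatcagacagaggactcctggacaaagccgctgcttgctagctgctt
The RUNX letters were present in 5 of the 5 matched windows. Counted from the start, their first base lay at -129 in Klrk1, -87 in Klrc1, -83 in Nkg7 and -89 in Klrb1c, and at -176 and -41 in Ncr1. Of all 32851 promoter windows of 300 bases, 16.8% held these letters on either strand. The T-box letters, or TCACACCT on the other strand, were found at -14 in Nkg7 alone among the 5 genes and in 1.3% of all windows. The motifs were chosen with these windows in view, their letters do not overlap in Nkg7, and a match describes the sequence only.

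The libraries held 5905374 to 9145214 counted reads in the Odc experiment and 6572148 to 12576933 in the Dohh experiment. A floor of 3 reads over all libraries of a group corresponded to 0.0824 to 0.130 and 0.0902 to 0.119 CPM (read counts scaled to TMM-normalised library size), respectively, which covers counting error only. Odc1 differed by 0.26, -0.20, -0.40 and 0.20 on the log2 scale in Odc-/- TH1, TH2, TH17 and Treg libraries, and Dohh by 1.43, 1.10, 0.41 and 1.15 in the corresponding Dohh-/- libraries. The floxed segments are only part of each gene and 47.5% of the exon length of Dohh overlaps another gene on the same strand, so these totals do not test the labels, and the names Odc-/- and Dohh-/- follow the labels throughout. Cd4, the defining marker of the labelled cell type, averaged 702 to 941 CPM in the 4 WT groups and 36.1 to 61.3 CPM in the 4 Dohh-/- groups of the Dohh experiment. It averaged 658 to 883 CPM in the WT groups and 347 to 512 CPM in the Odc-/- groups. Cd3e, a T cell receptor chain shared by αβ and γδ T cells, was called changed in none of the 8 comparisons, with log2 differences of -0.69 to 0.08.

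Deficient and WT cells of each subset were first compared to ask which NK receptor genes changed. A gene is called higher where its fold change was above 2 and its Benjamini-Hochberg adjusted p (edgeR, quasi-likelihood F test) below 0.05. In Odc-/- cells 3 of 6 members were called higher in TH1 (10.2% of all genes tested), 1 of 6 in TH2 (11.5%), 4 of 6 in TH17 (8.35%) and 6 of 6 in Treg cells (13.9%). In Dohh-/- cells 5 of 5 members tested were called higher in TH1 (14.8% of all genes), 4 of 5 in TH2 (14.3%), 5 of 5 in TH17 (17.3%) and 5 of 5 in Treg cells (17.5%). No member was called lower in any of the 8 comparisons, while 11.3%, 13.6%, 7.21% and 10.1% of all genes were lower in Odc-/- and 14.2%, 11.6%, 14.1% and 15.2% in Dohh-/- TH1, TH2, TH17 and Treg cells. The median log2 difference of all genes tested was -0.00 to 0.07. Ncr1 and Klrb1c passed the low-count filter only through deficient libraries (Ncr1 through 8 Odc-/- libraries, Klrb1c through 9 Odc-/- and 5 Dohh-/- libraries, and no WT library). For them high values in some deficient libraries were a condition of entering the test, though a difference in each subset was not. Ncr1 was not tested in the Dohh experiment. Klrk1, Klrd1, Klrc1 and Nkg7 exceeded the filter in every library, and over these 4 members alone 1, 0, 2 and 4 were called higher in Odc-/- and 4, 4, 4 and 4 in Dohh-/- TH1, TH2, TH17 and Treg cells. In bulk RNA, a larger share of cells bearing a transcript and more transcript per cell cannot be told apart.

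**Figure D1:**
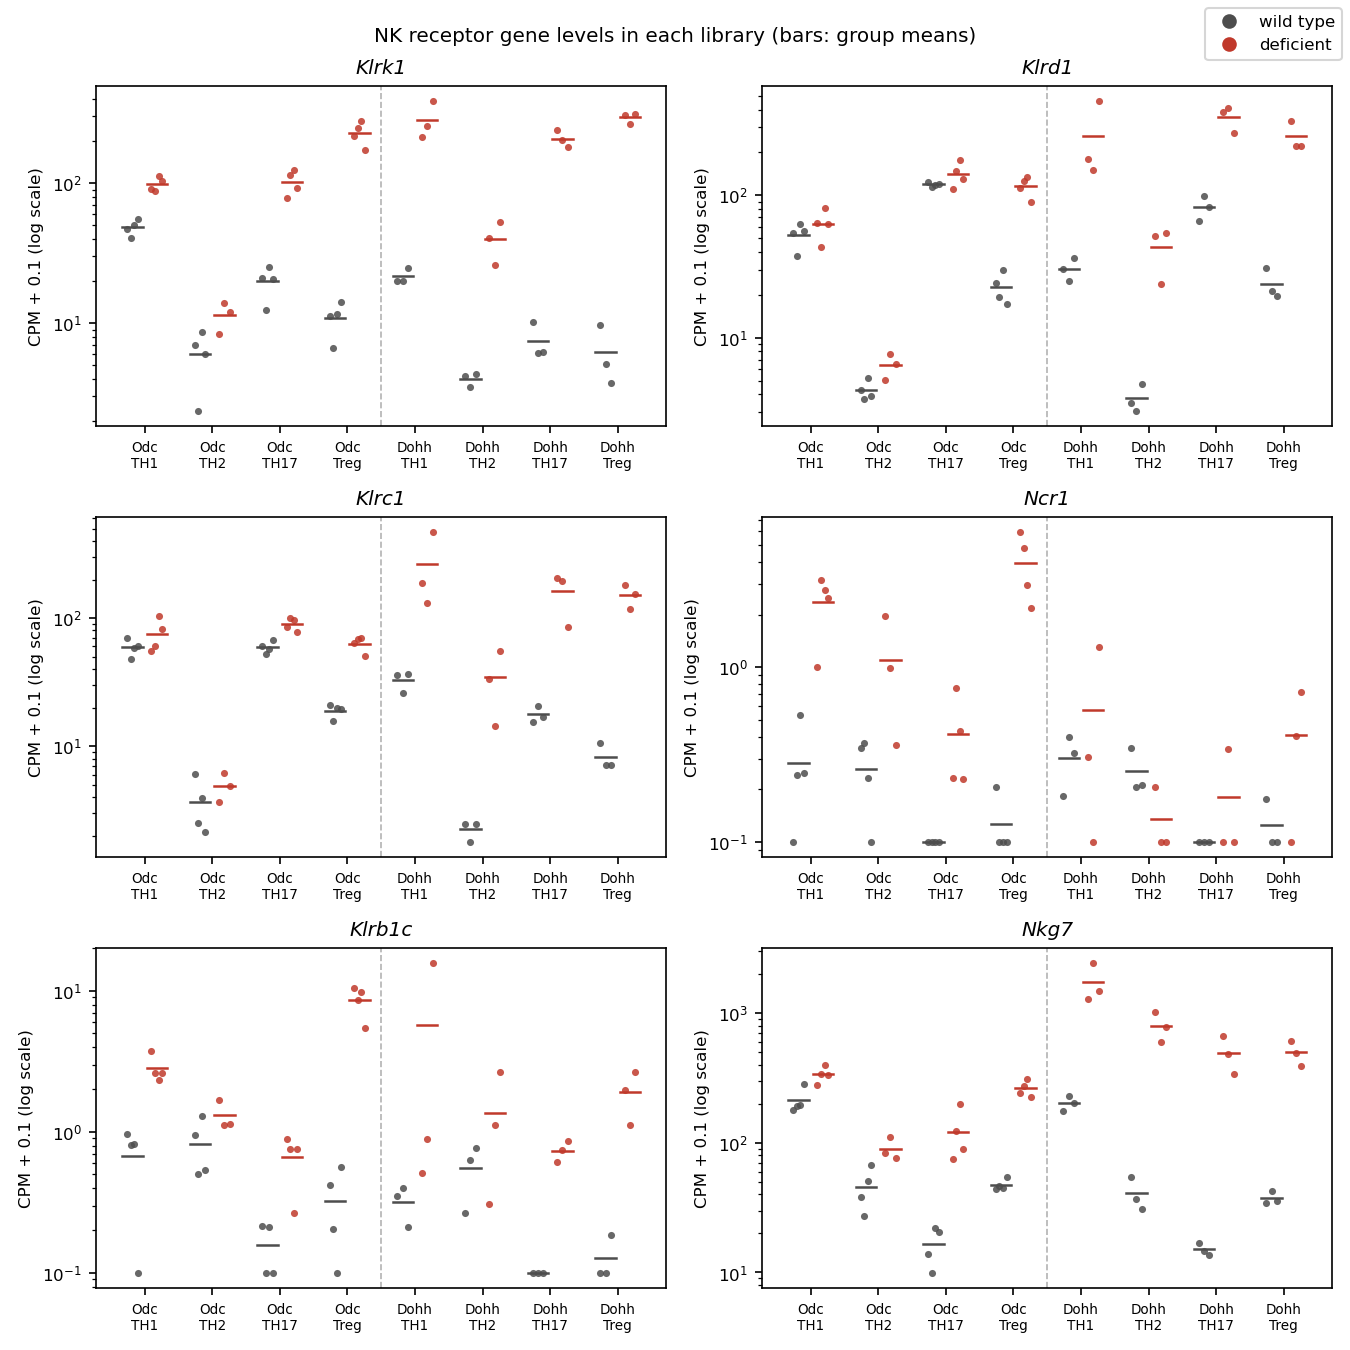
Level of each NK receptor gene in every library, as CPM plus 0.1 on a log axis, by experiment (Odc or Dohh) and subset. Each point is 1 library, grey for WT and red for deficient, and bars are group means. Klrk1 in Treg cells lies at 6.51 to 14.1 CPM in the 4 WT and 172 to 277 CPM in the 4 Odc-/- libraries, with no overlap. Ncr1 has 0 to 3 and Klrb1c 0 to 9 reads in each WT library.

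Klrk1 (NKG2D, ENSMUSG00000030149) was higher in deficient cells of 7 of the 8 comparisons, with the largest fitted difference in Treg cells of both experiments. In TH1 cells Klrk1 was at 47.0, 40.5, 50.5 and 55.2 CPM in the 4 WT libraries and at 90.6, 87.5, 113 and 103 CPM in the 4 Odc-/- libraries. In TH2 cells it was at 6.86, 2.27, 8.55 and 5.98 CPM in WT and at 8.22, 13.8 and 12.0 CPM in Odc-/- libraries. The TH1 groups did not overlap, while in TH2 the lowest Odc-/- library lay under the highest WT library. The log2 difference was 1.03 ± 0.230 (SE) in TH1 (edgeR adjusted p = 0.000496) and 0.94 ± 0.305 in TH2 (edgeR adjusted p = 0.0102), the latter under the 2-fold threshold. Without WT replicate 3 or Odc-/- replicate 2 the TH2 difference was called, at 1.14 and 1.12, and over all 7 libraries left out in turn it was 0.64 to 1.14. The TH1 value sits at that threshold: it was 1.0 with RLE size factors, 0.99 without the low-count filter and 0.99 with DESeq2. Without WT replicate 1, WT replicate 2 or Odc-/- replicate 3 it was 1.0, 0.95 and 0.96, and the call was lost under each of these settings.

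In TH17 cells Klrk1 was at 21.0, 12.4, 25.3 and 20.6 CPM in WT and at 78.5, 114, 124 and 92.7 CPM in Odc-/- libraries. In Treg cells it was at 11.2, 6.51, 11.5 and 14.1 CPM in WT and at 217, 248, 277 and 172 CPM in Odc-/- libraries. Every Odc-/- library exceeded every WT library in both subsets. The fitted differences were 2.37 ± 0.242 in TH17 (edgeR adjusted p = 9.08e-08) and 4.40 ± 0.264 in Treg cells (edgeR adjusted p = 3.62e-12), the latter a 21.1-fold difference.

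In the Dohh experiment Klrk1 was at 19.96, 19.9 and 24.7 CPM in WT and 214, 256 and 384 CPM in Dohh-/- TH1 libraries. In TH2 it was at 4.12, 3.38 and 4.26 CPM in WT and 40.3, 26.1 and 53.1 CPM in Dohh-/- libraries. The lowest Dohh-/- TH2 library thus exceeded the highest WT TH1 library. In TH17 it was at 10.1, 6.05 and 6.12 CPM in WT and 239, 202 and 181 CPM in Dohh-/- libraries, and in Treg cells at 9.63, 4.98 and 3.67 against 309, 266 and 314 CPM. No groups overlapped in these 4 comparisons. The fitted differences were 3.73 ± 0.309, 3.34 ± 0.327, 4.79 ± 0.330 and 5.58 ± 0.342 in TH1, TH2, TH17 and Treg cells (edgeR adjusted p = 1.19e-08, 1.20e-07, 7.21e-10 and 9.66e-11).

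Klrd1 and Klrc1, the subunits of the inhibitory CD94/NKG2A receptor, were called in Treg cells alone among Odc-/- subsets, whereas both were called in all 4 Dohh-/- subsets. Klrd1 (ENSMUSG00000030165) in TH1 cells was at 54.2, 37.4, 63.1 and 55.7 CPM in WT and 63.6, 43.0, 81.9 and 62.6 CPM in Odc-/- libraries. In TH17 cells it was at 125, 114, 118 and 121 CPM in WT and 111, 149, 176 and 130 CPM in Odc-/- libraries. Groups overlapped in both subsets. In TH2 cells it was at 4.16, 3.60, 5.08 and 3.79 CPM in WT and 4.90, 7.52 and 6.46 CPM in Odc-/- libraries, again with overlap. The log2 differences of Klrd1 in Odc-/- TH1, TH2 and TH17 cells were 0.25 (95% interval -0.12 to 0.63), 0.60 and 0.24, with edgeR adjusted p of 0.238, 0.0583 and 0.261. In Treg cells Klrd1 was at 24.0, 19.3, 29.7 and 17.0 CPM in WT and at 113, 126, 134 and 89.2 CPM in Odc-/- libraries. These groups stood well apart, by 2.36 ± 0.190 on the log2 scale (edgeR adjusted p = 2.43e-10).

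Klrc1 (ENSMUSG00000030167) in TH1 cells was at 69.6, 47.6, 58.3 and 60.5 CPM in WT and at 55.7, 60.8, 105 and 81.5 CPM in Odc-/- libraries. In TH2 cells it was at 6.00, 2.40, 3.88 and 2.04 CPM in WT and at 3.58, 6.12 and 4.78 CPM in Odc-/- libraries. Groups overlapped in both, with log2 differences of 0.36 and 0.41 (edgeR adjusted p = 0.104 and 0.233). In TH17 cells it was at 59.97, 52.6, 57.7 and 67.0 CPM in WT and at 85.5, 100.3, 96.7 and 77.3 CPM in Odc-/- libraries. These groups did not overlap, yet the difference of 0.60 ± 0.186 (edgeR adjusted p = 0.00996) was under the 2-fold threshold. In Treg cells it was at 20.8, 15.6, 19.6 and 19.6 CPM in WT and at 63.4, 68.3, 69.2 and 50.6 CPM in Odc-/- libraries, a called difference of 1.74 ± 0.197 (edgeR adjusted p = 5.16e-08).

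In Dohh experiment TH1 cells Klrd1 was at 30.2, 24.8 and 36.1 CPM in WT and at 180, 152 and 456 CPM in Dohh-/- libraries. Klrc1 there was at 35.7, 26.1 and 36.7 CPM in WT and at 188, 132 and 466 CPM in Dohh-/- libraries. Dohh-/- TH1 replicate 3 was the highest library for both subunits and also for Klrk1. With that library included, the Dohh-/- TH1 means ± SD were 262.5 ± 167.9 CPM for Klrd1 and 262.0 ± 178.6 CPM for Klrc1. In TH2 Klrd1 was at 3.38, 2.96 and 4.60 CPM in WT and 51.5, 23.6 and 53.9 CPM in Dohh-/- libraries, and Klrc1 at 2.39, 1.69 and 2.35 against 33.5, 14.4 and 55.5 CPM. In TH17 Klrd1 was at 65.7, 99.3 and 83.0 CPM in WT and 385, 409 and 274 CPM in Dohh-/- libraries, and Klrc1 at 15.4, 20.6 and 16.9 against 204, 194 and 85.8 CPM. Dohh-/- TH17 replicate 3 was the lowest library for both. In Treg cells Klrd1 was at 30.6, 21.0 and 19.5 CPM in WT and 333, 222 and 223 CPM in Dohh-/- libraries, and Klrc1 at 10.5, 7.05 and 7.07 against 182, 118 and 153 CPM. No groups overlapped. The fitted log2 differences in TH1, TH2, TH17 and Treg cells were 3.11, 3.56, 2.11 and 3.44 for Klrd1 (SE 0.354 to 0.409) and 3.00, 3.99, 3.20 and 4.19 for Klrc1 (SE 0.452 to 0.529). Their edgeR adjusted p values ran from 3.06e-07 to 6.35e-05.

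Ncr1 (NKp46, ENSMUSG00000062524) was at the limit of detection in WT cells and is given in read counts. WT libraries held 0 to 3 Ncr1 reads in each experiment, and 9 of the 16 WT libraries of the Odc experiment held none. In Treg cells WT libraries held 1, 0, 0 and 0 reads and Odc-/- libraries 44, 39, 22 and 16. In TH1 cells they held 0, 1, 3 and 1 against 6, 23, 19 and 17. Neither pair of groups overlapped, and the ratio of pooled reads per library size was 12.6 in TH1 (95% counting interval 5.14 to 40.2) and 140.8 in Treg cells (24.8 to 5607.3), where it rests on 1 WT read. With each of the 8 TH1 libraries left out in turn, the fitted log2 difference of Ncr1 in TH1 was 3.13 to 4.32. In TH17 cells WT libraries held 0 reads and Odc-/- libraries 1, 5, 2 and 1, at least 3.60-fold higher against a floor of 3 reads over the group. In TH2 cells WT libraries held 2, 2, 1 and 0 reads and Odc-/- libraries 14, 7 and 2, with overlap and a ratio of 5.97 (2.22 to 20.1). The edgeR calls of Ncr1 in Odc-/- cells are given only within the counts above, since its deficient libraries alone let it pass the filter, and in TH2 and TH17 they were lost without Odc-/- replicate 2 (adjusted p = 0.119 and 0.0533). In the Dohh experiment Ncr1 was not tested, and Dohh-/- libraries held 2, 0 and 11 reads in TH1, 1, 0 and 0 in TH2, 0, 3 and 0 in TH17 and 0, 3 and 6 in Treg cells. WT libraries held 1, 3 and 2, then 3, 1 and 1, then 0, 0 and 0, and 1, 0 and 0 reads. The pooled ratio was 2.67 in TH1 (0.947 to 8.56), 0.212 in TH2 (0.00449 to 1.90) and 10.4 in Treg cells (1.45 to 457.7). The Treg ratio rests on 1 WT read, the groups overlapped, and the interval covers counting error only. In TH2 every Dohh-/- library lay below every WT library in CPM, at 1 read against 5 over the groups. At this depth no difference of Ncr1 was established in any Dohh-/- subset.

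Klrb1c (NK1.1, ENSMUSG00000030325) was also scarce. In Treg cells WT libraries held 3, 1, 0 and 4 Klrb1c reads and Odc-/- libraries 78, 71, 75 and 41. In TH1 cells they held 6, 5, 5 and 0 against 24, 19, 16 and 18, and in TH17 cells 1, 0, 1 and 0 against 6, 5, 1 and 5. The groups did not overlap in CPM in any of these 3 subsets, with pooled ratios of 38.5 (19.3 to 90.2), 4.67 (2.70 to 8.58) and 10.2 (2.42 to 91.1). The edgeR calls of Klrb1c, as those of Ncr1, were conditional on deficient libraries passing the filter. In TH2 cells WT libraries held 7, 3, 9 and 3 reads and Odc-/- libraries 12, 8 and 8, a ratio of 1.65 (0.911 to 3.03; edgeR adjusted p = 0.248). In Dohh-/- cells replicate 3 of TH1 held 141 of the 150 Klrb1c reads and the others 4 and 5, against 3, 3 and 1 in WT. The call in TH1 (edgeR adjusted p = 0.00247) was lost without that library, at 0.249. Dohh-/- Treg libraries held 17, 10 and 25 reads against 0, 0 and 1 in WT (ratio 60.3, interval 10.4 to 2428.3), and Dohh-/- TH17 libraries held 5, 8 and 5 reads against 0 in every WT library, at least 6.49-fold higher. The TH17 call (edgeR adjusted p = 0.0265) did not hold when any WT library or Dohh-/- replicate 3 was left out, at 0.0537 to 0.0697. In TH2 the counts were 2, 10 and 24 against 2, 5 and 6, with overlap and edgeR adjusted p = 0.273.

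Nkg7 (ENSMUSG00000004612), the granule gene, was called higher in TH17 and Treg cells of Odc-/- and in all 4 subsets of Dohh-/- cells. In TH17 cells it was at 13.8, 9.83, 22.1 and 20.4 CPM in WT and at 75.0, 123, 199.7 and 88.7 CPM in Odc-/- libraries. In Treg cells it was at 44.1, 46.4, 44.9 and 54.2 CPM in WT and at 242, 272, 311 and 226 CPM in Odc-/- libraries. Both pairs of groups stood apart, with log2 differences of 2.87 ± 0.286 and 2.47 ± 0.272 (edgeR adjusted p = 6.27e-08 and 4.24e-08). In TH1 cells Nkg7 was at 179, 193, 195 and 283 CPM in WT and at 277, 337, 401 and 336 CPM in Odc-/- libraries, and in TH2 cells at 37.8, 27.2, 50.6 and 67.3 against 82.7, 110.1 and 76.1 CPM. The TH1 groups overlapped through WT replicate 4, and the TH2 groups did not overlap. Neither difference reached 2-fold, at 0.67 ± 0.256 (edgeR adjusted p = 0.0276) and 0.97 ± 0.282 (edgeR adjusted p = 0.00459). The TH2 difference passed the threshold, at 1.0 to 1.22, when WT replicate 3 or 4 or Odc-/- replicate 2 or 4 was left out.

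In Dohh-/- cells Nkg7 was at 1276, 2417 and 1480.2 CPM in TH1 against 176, 228 and 201 CPM in WT. In TH2 it was at 1016, 594 and 782 CPM against 54.8, 36.9 and 30.8 CPM. All Dohh-/- libraries lay far above all WT libraries of the same subset. In TH17 it was at 672, 480 and 337 CPM against 16.7, 14.6 and 13.6 CPM, and in Treg cells at 608, 497 and 390.1 CPM against 34.2, 42.1 and 35.2 CPM. The log2 differences were 3.10 ± 0.290, 4.28 ± 0.308, 5.05 ± 0.322 and 3.75 ± 0.301 in TH1, TH2, TH17 and Treg cells (edgeR adjusted p = 6.44e-08, 1.74e-09, 4.42e-10 and 4.28e-09).

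**Figure D2:**
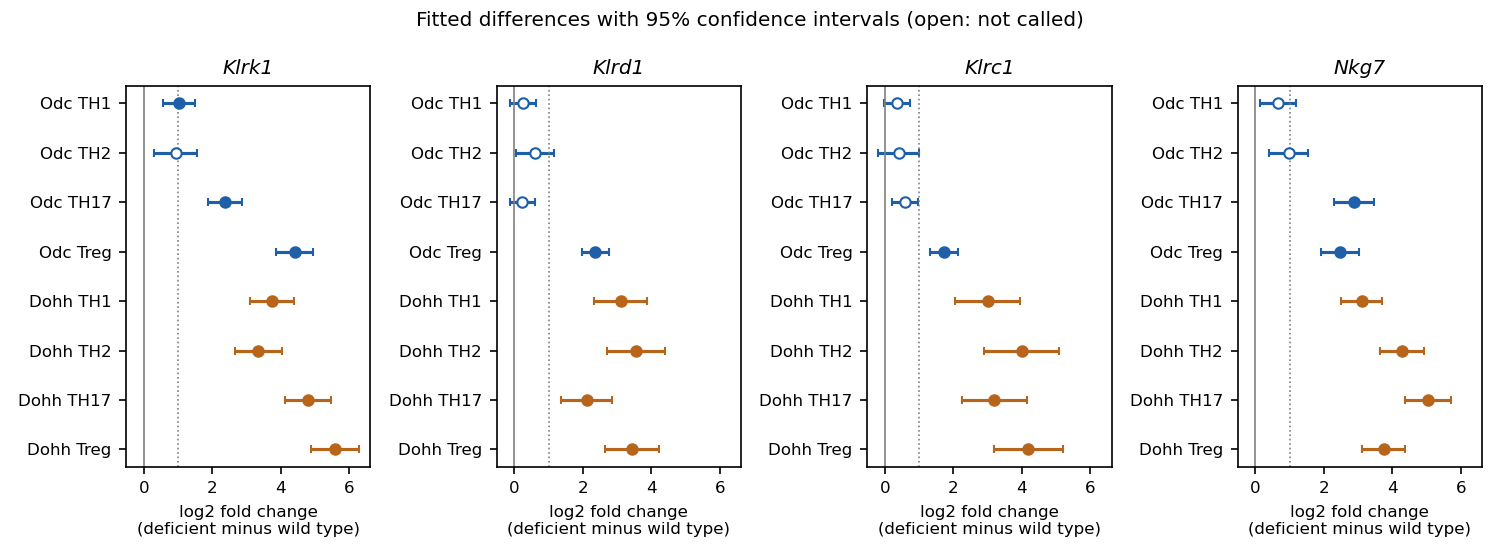
Fitted log2 fold change (deficient minus WT, edgeR) of the 4 members with enough reads in WT cells, for each experiment and subset. Points are estimates and bars 95% confidence intervals, blue for Odc and orange for Dohh, open where not called, with a dotted line at the 2-fold threshold of 1. Klrd1 and Klrc1 are called in Treg cells alone among the Odc comparisons, while all 16 Dohh values are called.

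Whether a member's difference depended on the subset was tested as an interaction. In the Odc experiment the genotype effect differed between subsets for 5 of 6 members at an adjusted p below 0.05 (34.8% of all genes), with edgeR adjusted p of 1.11e-07 for Klrk1, 9.39e-07 for Klrd1, 0.000925 for Klrc1, 0.000477 for Klrb1c, 7.32e-05 for Nkg7 and 0.0952 for Ncr1. Klrb1c is among the 5 although only deficient libraries let it pass the filter, and of the 4 members that passed in every library the effect differed for 4. The TH1 effect minus the Treg effect was -3.37 ± 0.338 for Klrk1, -2.10 ± 0.261 for Klrd1, -1.38 ± 0.270 for Klrc1 and -1.80 ± 0.366 for Nkg7 on the log2 scale (edgeR adjusted p = 1.71e-07 to 0.000963). The TH17 effect minus the Treg effect was -2.04 for Klrk1 and -2.12 for Klrd1 (edgeR adjusted p = 0.000225 and 3.59e-06). For Nkg7 it was 0.40 (95% interval -0.37 to 1.18, edgeR adjusted p = 0.553). The TH1 and TH2 effects could not be separated for any of these 4 genes (edgeR adjusted p = 0.780 to 0.990). In the Dohh experiment the effect differed between subsets for 2 of 5 members (17.9% of all genes), both among those 4, Klrk1 (edgeR adjusted p = 0.00218) and Nkg7 (0.00620). For Klrk1 the TH2 effect minus the Treg effect was -2.25 ± 0.438 and the TH1 effect minus the Treg effect -1.86 ± 0.410, and for Nkg7 the TH1 effect minus the TH17 effect was -1.95 ± 0.389. Both calls depended on single replicate numbers: without number 2 the adjusted p was 0.125 for Klrk1 and 0.0745 for Nkg7, and without number 1 it was 0.0538 for Nkg7. For Klrd1, Klrc1 and Klrb1c the test gave 0.116, 0.352 and 0.267.

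The deficiencies were then compared by testing the Dohh effect minus the Odc effect within each subset, in a joint fit in which each effect was taken against its own WT. The Dohh effect was larger for Klrk1, Klrd1, Klrc1 and Nkg7 in all 4 subsets, 4 of 6 members in each (18.5%, 15.7%, 21.4% and 26.2% of all genes differed in TH1, TH2, TH17 and Treg cells). The difference was 2.72, 2.39, 2.47 and 1.21 on the log2 scale for Klrk1 in TH1, TH2, TH17 and Treg cells. It was 2.87, 2.95, 1.92 and 1.13 for Klrd1 and 2.66, 3.57, 2.65 and 2.49 for Klrc1. For Nkg7 it was 2.45, 3.29, 2.22 and 1.32. The largest edgeR adjusted p of these 16 was 0.0244. In Treg cells the differences of Klrk1, Klrd1 and Nkg7 lost the threshold when single replicate numbers were left out (0.0505 to 0.137). Ncr1 and Klrb1c gave no difference past the threshold (edgeR adjusted p = 0.0778 to 1 and 0.164 to 0.890), at counts that leave wide intervals. The WT means of these 4 genes were lower in the Dohh than in the Odc experiment in every subset, except Klrd1 in Treg cells (23.7 against 22.5 CPM). Klrc1 in WT TH17 cells averaged 17.6 CPM in the Dohh and 59.3 CPM in the Odc experiment, and Klrk1 in WT Treg cells 6.09 and 10.8 CPM. The part of these WT levels in the differences was not tested. Each experiment had its own WT libraries, and anything that differed between them besides the deleted gene cannot be told apart from it.

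WT cells of the 4 subsets differed in these genes before any deletion. Ranked by its mean, Klrk1 in WT cells ran TH1, TH17, Treg and TH2 in both experiments, with means ± SD of 48.3 ± 6.18, 19.8 ± 5.39, 10.8 ± 3.16 and 5.91 ± 2.66 CPM (n = 4 each) in the Odc experiment. TH1 exceeded TH17 by 1.28 ± 0.240 (SE) on the log2 scale (edgeR adjusted p = 0.000106), while TH17 over Treg (0.88) and TH2 against Treg (-0.87) stayed under 2-fold. In Dohh experiment WT cells TH2 lay under TH17 without overlap, by less than 2-fold (-0.93, -1.61 to -0.24, edgeR adjusted p = 0.0429), but the place of Treg was one of means only, since TH17 minus Treg was 0.28 (95% interval -0.38 to 0.93, edgeR adjusted p = 0.734) and TH2 minus Treg -0.65 (-1.34 to 0.04, edgeR adjusted p = 0.160), with overlapping groups in both. Klrd1 had another order of means, with TH17 highest, then TH1, Treg and TH2, although TH1 minus Treg in the Dohh experiment was 0.35 (-0.38 to 1.08, edgeR adjusted p = 0.517) with overlapping groups. TH1 minus TH17 was -1.18 on the log2 scale in the Odc experiment (edgeR adjusted p = 7.49e-06) and -1.44 in the Dohh experiment (edgeR adjusted p = 0.00458; 0.133 without number 2). TH2 was 28.6-fold and 22.7-fold under TH17 in the respective experiments. For Klrc1, TH1 minus TH17 was not called, at -0.01 (95% interval -0.39 to 0.38) in the Odc and 0.90 (-0.01 to 1.81, edgeR adjusted p = 0.158) in the Dohh experiment. In the latter every TH1 library exceeded every TH17 library, at 26.1 to 36.7 against 15.4 to 20.6 CPM. TH2 was lowest for Klrc1. Nkg7 was highest in TH1 in both experiments, 12.8-fold and 13.4-fold over TH17, with TH2 and Treg between and not separable from each other (-0.05 and 0.14). Klrd1 in WT TH17 libraries (114 to 125 CPM) lay within its range in Odc-/- Treg libraries (89.2 to 134 CPM).

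Counted over these WT contrasts in the Odc experiment, 4 of 6 members were called between TH1 and TH2 (8.87% of all genes), 4 between TH1 and TH17 (14.9%), 4 between TH1 and Treg (19.4%), 5 between TH2 and TH17 (17.5%), 3 between TH2 and Treg (21.1%) and 3 between TH17 and Treg (14.0%). These include 3 calls of Klrb1c, which held fewer than 10 reads in each WT library. The corresponding counts of 5 members tested in the Dohh experiment were 4 (6.21%), 3 (12.4%), 3 (15.5%), 3 (13.7%), 2 (17.1%) and 2 (7.07%). None of the latter was of Klrb1c. These contrasts were fitted without a replicate block. A block shared by same-numbered WT and deficient libraries, which were not taken as pairs, added calls at 0 to 9 reads a WT library. Ncr1 was then called between TH1 and TH17 and between TH2 and TH17 in the Odc experiment (edgeR adjusted p = 0.0413 and 0.0441 in place of 0.0518 and 0.0531). Klrb1c was then called between TH2 and TH17 in the Dohh experiment (edgeR adjusted p = 0.0451 in place of 0.0855). No other call changed. With a block within genotype, the number of calls in each experiment was the same as without a block.

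In deficient cells, compared without a replicate block, the order of the subsets changed for Klrk1 and for other members. For Klrk1 among Odc-/- cells TH1 minus Treg was -1.21 ± 0.225 and TH17 minus Treg -1.16 ± 0.225 on the log2 scale (edgeR adjusted p = 9.28e-05 and 0.000330). TH1 and TH17 did not separate there (-0.05, 95% interval -0.51 to 0.41). Among Dohh-/- cells TH1 and Treg did not separate for Klrk1 (-0.06, -0.63 to 0.51). For Klrd1 in the Odc experiment TH1 minus Treg was 1.22 in WT and -0.88 in Odc-/- cells (edgeR adjusted p = 4.49e-06 and 0.000273), the latter under 2-fold. For Nkg7 there TH2 minus TH17 was 1.46 in WT, and in Odc-/- cells these subsets did not separate (-0.44, -1.02 to 0.14). TH2 stayed lowest for Klrk1, Klrd1 and Klrc1 in both deficiencies, with TH2 minus Treg or TH17 between -4.48 and -2.13 and TH1 minus TH2 between 2.61 and 3.96 on the log2 scale. Nkg7 in Dohh-/- cells was highest in TH1, by 1.11 over TH2 (edgeR adjusted p = 0.00950), and TH17 and Treg could not be separated (-0.01, 95% interval -0.56 to 0.55).

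Levels of different genes can be compared only per length. Per kilobase of the principal transcript, WT TH1 cells of the Odc experiment held 241 CPM per kb of Nkg7, 86.3 of Klrc1, 58.8 of Klrd1 and 38.0 of Klrk1. Per kilobase of all annotated exons, the same cells held 232, 29.8, 41.1 and 6.72, so the order of Klrc1 and Klrd1 depends on the length used. Nkg7 came first by either measure. In WT TH17 cells Klrd1 came first, at 133 against 18.8 CPM per kb of principal transcript for Nkg7, and at 93.1 against 18.1 per kb of all exons. The low exon value of Klrk1 follows from long annotated transcripts, since its exons sum to 7183 bases and its principal transcript to 1270.

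Across libraries the members did not all vary together. On log2 CPM, Klrd1 and Klrc1 correlated at r = 0.96 over the 31 libraries of the Odc experiment and at 0.94 over the 24 of the Dohh experiment. Klrd1 and Nkg7 correlated at 0.25 and 0.57, and Klrd1 and Klrb1c at 0.11 and 0.42. These values describe libraries that share subset and genotype groups, and they carry no test. Leaving out the members themselves, the 3 genes most like each member, by the lower of both r values among 12924 genes tested in both experiments, were Atp8b4, Ifitm1 and Adgrg5 for Klrk1 (r of 0.92 to 0.95). For Klrd1 they were Klrc2, Gcnt1 and Klre1 (0.88 to 0.98), for Klrc1 Klrc2, Gcnt1 and Gm14029 (0.90 to 0.98), for Nkg7 Ifitm3, Ly6c2 and Ifng (0.90 to 0.97) and for Klrb1c Cd244a, Sh3bp2 and Havcr2 (0.77 to 0.82). Ncr1 had no such list because it did not pass the filter in both experiments.

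The wider NK gene complex was examined next, as 42 protein-coding genes at chr6:128609227-130386874, of which 27 passed the filter in the Odc and 26 in the Dohh experiment. In Odc-/- TH1, TH2, TH17 and Treg cells 10, 11, 15 and 22 of these 27 were called higher, and in Dohh-/- cells 18, 13, 20 and 21 of 26, against 10.2%, 11.5%, 8.35% and 13.9% of all genes and 14.8%, 14.3%, 17.3% and 17.5%. These counts include the 4 members of the complex and genes that, like Klrb1c, passed the filter through deficient libraries. Such genes were thereby selected for high values in some deficient group, though not for a difference in each subset. Of the genes tested, 17 in the Odc and 14 in the Dohh experiment exceeded the filter's cutoff in at least 3 WT libraries, and of these 4, 6, 6 and 12 of 17 were called higher in Odc-/- and 10, 9, 10 and 10 of 14 in Dohh-/- TH1, TH2, TH17 and Treg cells. The complex also holds Clec12a, Clec1b, Clec9a and Olr1, lectin-like receptors of myeloid and other cells. Clec12a exceeded the filter's cutoff in no WT library of either experiment, and Clec1b and Clec9a in none of the Dohh experiment. Their calls there were thus conditional on deficient libraries passing the filter. Clec12a was called higher in every comparison but Odc-/- TH1, and Olr1 also in Dohh-/- TH2 cells. All 4 were called higher in Dohh-/- TH17 and Treg cells, where replicates 2 and 3 carried high levels of myeloid markers. Without those 4 libraries, which left 1 Dohh-/- library in each of these subsets, 13 and 14 of 28 genes tested were called higher in TH17 and Treg cells in place of 20 and 21 of 26, and 9 and 9 of the 14 in place of 10 and 10. The part of myeloid cells in these counts was not tested. A single gene was called lower, Clec2d, which encodes a ligand of NKR-P1 receptors, in Odc-/- TH2 cells at -1.02, and without WT replicate 3 its call was lost at -0.98. Gabarapl1, an autophagy gene inside the complex, was never called (-0.85 to 0.39). BC035044 was called higher in all 8 comparisons, at 2.19 to 4.20. Clec2d, Gabarapl1, BC035044 and the 4 receptors were chosen after their values were seen.

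**Figure D3:**
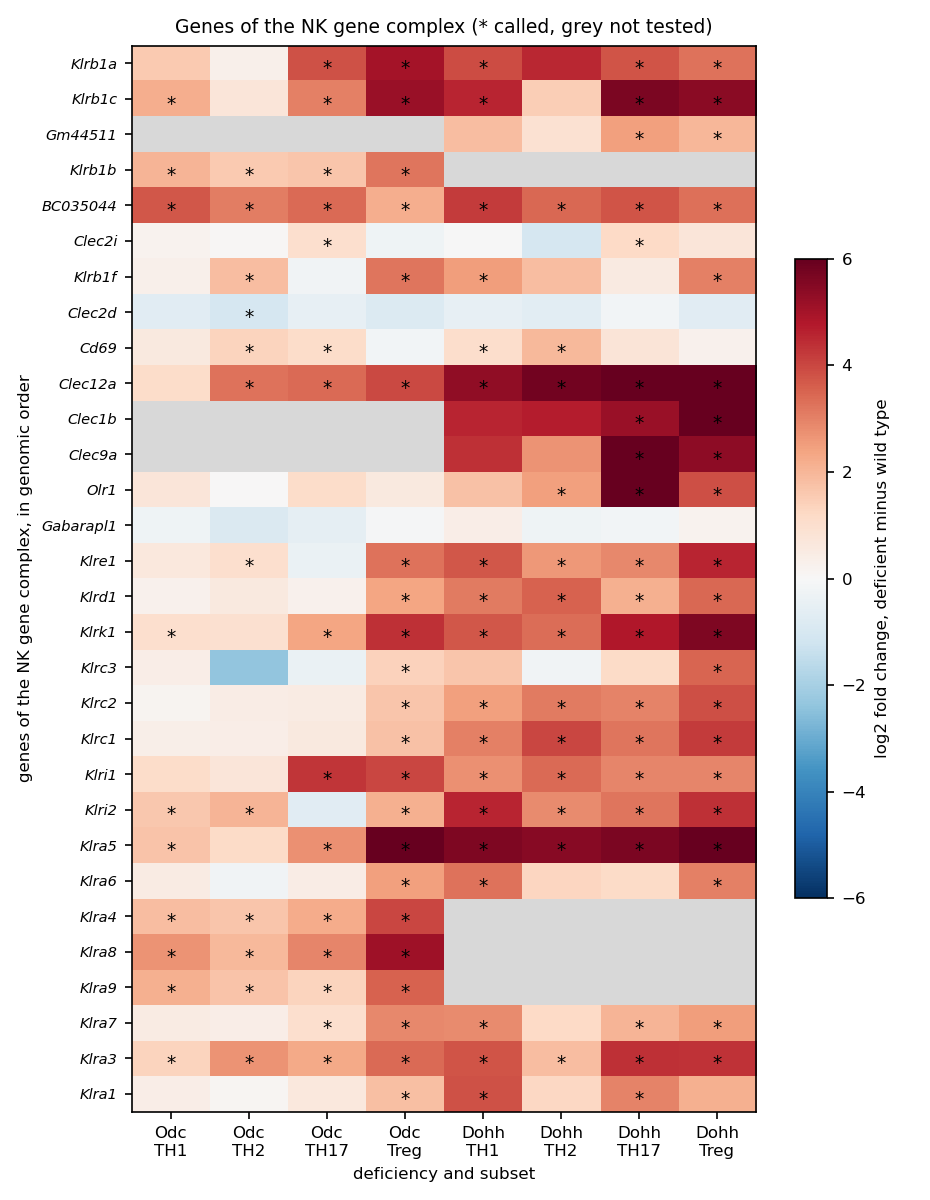
Fitted log2 fold change (deficient minus WT) of the NK gene complex genes tested in either experiment, in genomic order from top to bottom, for each experiment and subset. Colour runs from blue (lower) to red (higher) and is capped at 6 in either direction, asterisks mark called genes and grey marks genes not tested. For genes at or near 0 reads in WT cells the colour is a fitted value and no measured fold. In Odc-/- Treg cells 22 of 27 genes are called higher, and Gabarapl1 is pale in every column.

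A list of 22 other lectin-like receptor genes lay mostly in the chromosomal interval examined above, with Klrg1, Klrg2 and Klra2 outside that interval. Among them 8, 10, 11 and 18 of 18 tested were called higher in Odc-/- TH1, TH2, TH17 and Treg cells and 13, 9, 11 and 14 of 15 in Dohh-/- cells, with none lower. Of these, 9 of the 18 and 6 of the 15 exceeded the filter's cutoff in at least 3 WT libraries, and of them 2, 5, 3 and 9 of 9 were called in Odc-/- and 5, 4, 4 and 6 of 6 in Dohh-/- cells. With each of the 7 TH2 libraries left out in turn, the number called higher in Odc-/- TH2 cells was 5 to 9 in place of 10. Klrg1, an inhibitory receptor of effector T and NK cells, and Klra3 of the Ly49 family were called higher in all 8 comparisons, and Klra5, also of the Ly49 family, in 7. Klrg1 and Klra5 were over the cutoff in fewer than 3 WT libraries of either experiment, and Klra3 in fewer than 3 of the Dohh experiment. In Odc-/- TH1 cells, where it had enough reads for a fitted value, Klrg1 differed by 3.00. Its call in Odc-/- TH17 cells was lost without Odc-/- replicate 4. Those in Dohh-/- TH17 and Treg cells were each lost without WT replicate 1, WT replicate 3 or Dohh-/- replicate 1. They were also lost without replicates 2 and 3 of these Dohh-/- groups, which carried high levels of myeloid markers, and then 6 and 8 lectin-like receptor genes were called in place of 11 and 14, with 1 Dohh-/- library left in each subset. The Ly49 genes are near-identical in sequence, so reads may be shared among them.

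The shares of all genes called, 8.35% to 17.5% higher and 7.21% to 15.2% lower over the 8 comparisons, apply to the counts of the lists that follow. Of 10 other receptors used by NK cells, 6, 5, 6 and 6 were called higher in Odc-/- and 4, 6, 5 and 7 in Dohh-/- TH1, TH2, TH17 and Treg cells, and up to 3 lower. Cd244a (2B4) was higher in all 8 comparisons, at 1.94 to 4.84, as was Crtam, a receptor of activated cytotoxic lymphocytes, at 1.83 to 5.20. Cd160, which binds HVEM and MHC class I molecules, was also higher in all 8. The list's median was 1.16 to 2.37.

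Of 13 adaptors and proximal signalling genes tested, 3 or 4 were called higher in every comparison and up to 1 lower, with medians of -0.18 to 0.39. Sh2d1b1, one of the 13, exceeded the filter's cutoff in no WT library, and of the other 12 genes 3 were called higher in each Odc comparison and 2, 3, 3 and 3 in Dohh-/- TH1, TH2, TH17 and Treg cells. Tyrobp, which encodes DAP12, was higher in all 8, at 2.40 to 5.61, and Fcer1g, the Fc receptor γ chain that also serves NKp46, at 1.94 to 5.33. Syk, the kinase these adaptors recruit, was called in 7 of 8, but its call in Dohh-/- TH2 cells was lost without WT replicate 2, WT replicate 3 or Dohh-/- replicate 2, at 1.69 to 2.26 (edgeR adjusted p = 0.0523 to 0.0870). The Syk call in Dohh-/- TH17 cells was lost without the Dohh-/- libraries of high myeloid marker level (1.26). Hcst, which encodes DAP10, the other adaptor of NKG2D, was never called, at -0.92 to 0.96. Of the ligands of these receptors, 4 were tested in the Odc and 5 in the Dohh experiment. In each comparison 0 or 1 was called higher and 0 to 2 lower, with medians of -0.99 to -0.11. Raet1e, a ligand of NKG2D, was lower in all 4 Dohh-/- subsets, at -3.77 to -2.24, and was not tested in the Odc experiment. Clec2i, another ligand of NKR-P1 receptors, was called higher in TH17 cells of both deficiencies, at 1.02 and 1.21, and the Odc-/- call was lost without WT replicate 1, 2 or 4 or Odc-/- replicate 2 or 3, at 0.88 to 0.97.

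Of 14 cytotoxic granule genes, 5, 4, 6 and 7 were called higher in Odc-/- and 7, 8, 7 and 6 in Dohh-/- cells, and 1 lower in Odc-/- TH1 and in TH2 cells, with medians of 0.28 to 1.72, against 10.2%, 11.5%, 8.35% and 13.9% and 14.8%, 14.3%, 17.3% and 17.5% of all genes higher. Gzmk, one of the 14, exceeded the filter's cutoff in no WT library. The number lower in Odc-/- TH2 cells fell to 0 in 4 of 7 fits that left out a single library. Gzmc, Gzmb and Prf1, which encode granzymes C and B and perforin, were higher in all 8 comparisons, at 2.94 to 7.72, 1.52 to 7.96 and 1.68 to 5.69. Of 17 transcription factors of NK and effector T cells, 2 to 7 were called higher and 2 to 6 lower, with medians of -0.44 to 0.43. Some of these counts lie near the share of all genes, as in Odc-/- TH1 cells, where 2 of 17 were higher against 10.2% of all genes, and in Odc-/- TH2 cells, where 2 of 17 were lower against 13.6%. Eomes, a T-box factor of NK and CD8+ T cells, was higher in all 8, and Ets1 lower in all 8, at -1.55 to -1.16. The Ets1 call was lost in Dohh-/- TH1 cells without Dohh-/- replicate 2, at -0.96, and in TH17 and Treg cells without the Dohh-/- libraries of high myeloid marker level, at -0.99 and -1.04. Tbx21, which encodes T-bet, was higher in 7 and at 0.41 in Odc-/- TH1 cells, where it was not called (edgeR adjusted p = 0.241). Of the cytokine receptors of NK cells, 10 or 11 were tested and 0 to 2 were called in either direction. These counts too lie near the share of all genes in places, as in Odc-/- TH1 cells, where 1 of 11 was higher against 10.2%. Il18rap, a subunit of the IL-18 receptor, was higher in 6 of 8 comparisons. Il18r1, the other subunit, was higher in 3 and lower in 1, and Il12rb2, of the IL-12 receptor, was lower in 3. The call of Il18r1 in Dohh-/- TH17 cells was lost without Dohh-/- replicate 1 or 2, at 0.84 and 0.99, and that of Il12rb2 in Odc-/- TH2 cells without Odc-/- replicate 2, at -0.86.

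**Figure D4:**
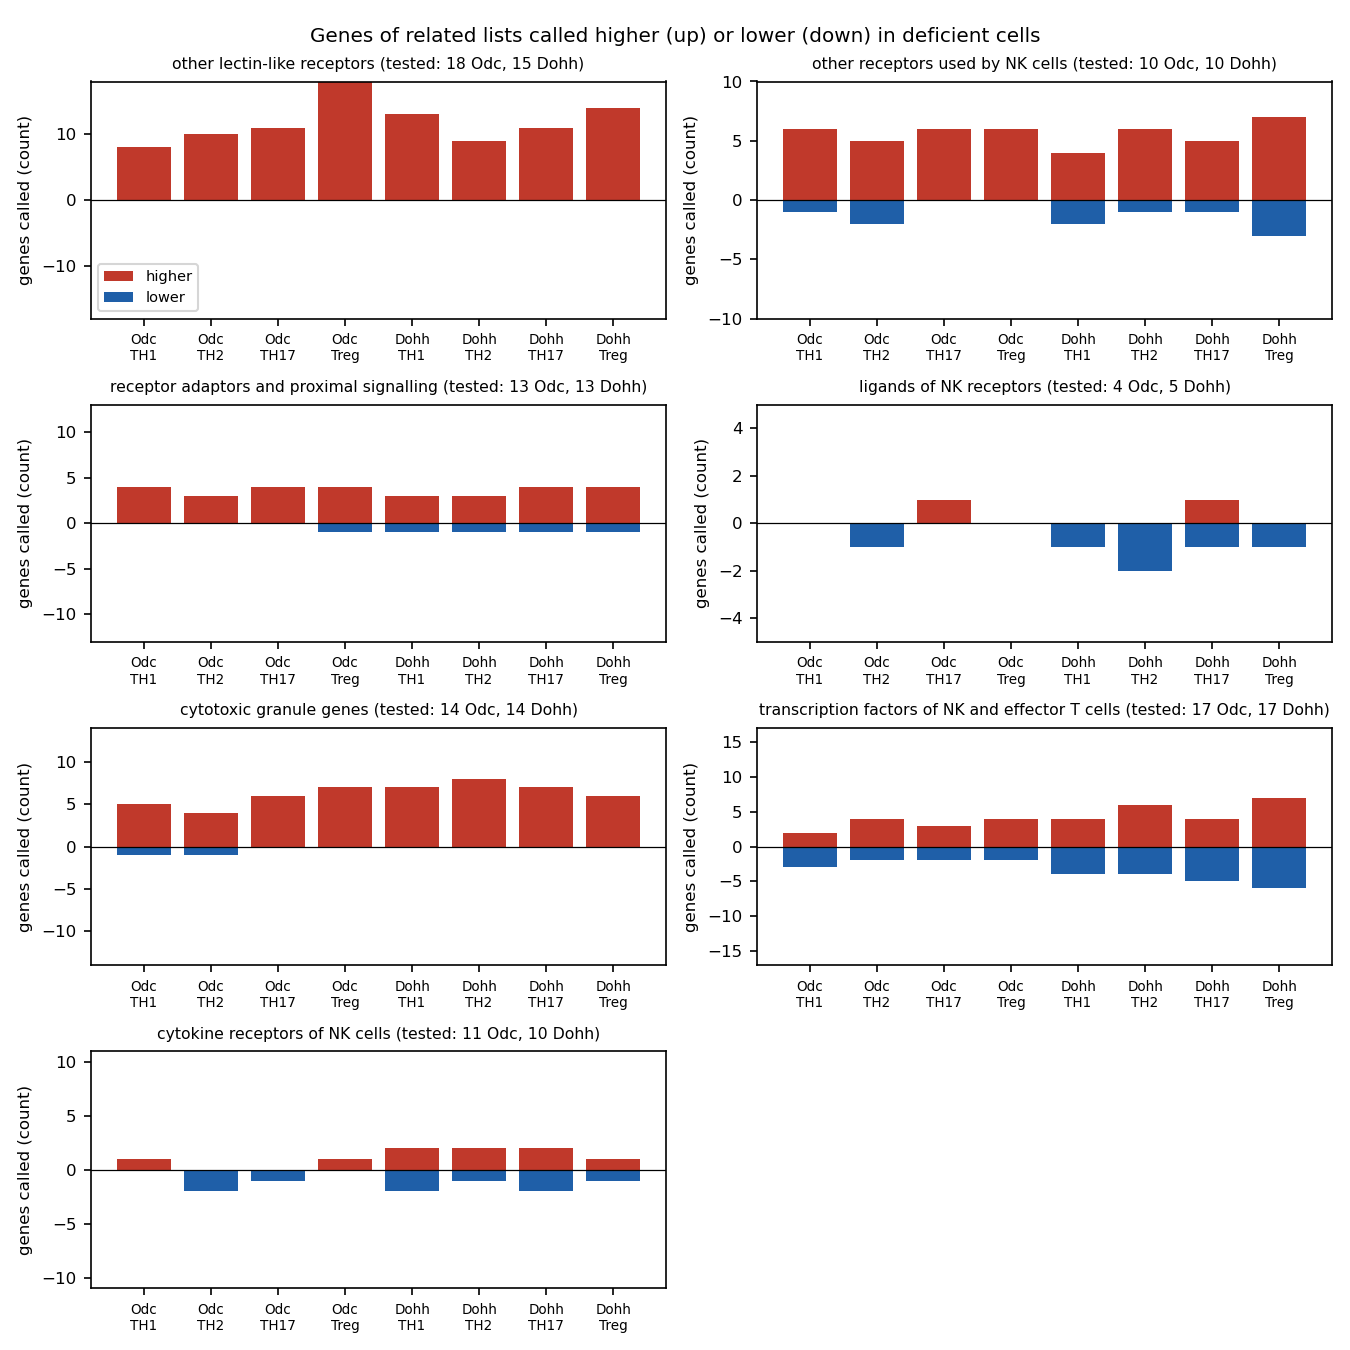
Number of genes called higher (red, upward) or lower (blue, downward) in deficient cells for each list of related genes, by experiment and subset, with the number tested in each panel title. Each axis spans the number tested. The other lectin-like receptors reach 18 of 18 in Odc-/- Treg cells with none lower (9 of the 18 passed the filter through WT libraries), while adaptors stay at 3 or 4 of 13 (2 or 3 of the 12 that passed the filter through WT libraries).

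Markers of other cell types were measured beside these genes, because NK receptors are borne by several of them. The 6 γδ T cell markers summed to 15.1 to 71.2 CPM over WT libraries of the Odc experiment. In Odc-/- libraries they summed to 131 to 363 in TH1, 125 to 134 in TH2, 310.4 to 622 in TH17 and 501 to 702 CPM in Treg cells, with 5, 6, 6 and 6 of the 6 called higher. Of these, Sox13 and Trdv4 exceeded the filter's cutoff in fewer than 3 WT libraries, and the other 4 were all called higher in each Odc comparison. Sums in the Dohh experiment were 27.1 to 61.6 CPM in WT and 709 to 1545 CPM in Dohh-/- libraries, with 6 of 6 called higher in every subset, 5 of 5 without Trdv4, which exceeded the cutoff in no WT library. Trdc, the constant region of the T cell receptor δ chain, was higher in all 8 comparisons, at 1.95 to 4.83. Trdv4 had no reads in WT TH1 cells of either experiment and in WT TH2 cells of the Dohh experiment.

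Of the 5 other NK cell markers, 4 were called higher in each Odc comparison and 2 of the 3 tested in each Dohh comparison, with the third, Itga2, lower in Dohh-/- TH17 cells at -2.34. Klra4 and Klra8 exceeded the filter's cutoff in no WT library of the Odc experiment, and of the other 3 markers 2 were called higher in each Odc comparison. In deficient cells Gzma made up most of the sum. The sum was 10.6 to 321 CPM in WT and 144 to 474 CPM in Odc-/- libraries, and 2.55 to 284 CPM in WT and 141 to 5846 CPM in Dohh-/- libraries. The NK markers Klra4 and Klra8 were scarce, reaching 8.59 and 6.08 CPM at most in any library, and Klra8 had no reads in WT TH17 and Treg cells of the Dohh experiment. Cd8a was called higher in TH17 and Treg cells of both deficiencies, at 1.36 and 3.46 in Odc-/- and 4.17 and 4.86 in Dohh-/- cells, and in Dohh-/- TH2 cells at 1.97. Cd8b1, the other chain of the CD8 coreceptor, was called higher in none of the 8 comparisons (-1.10 to 0.56) and lower in Dohh-/- TH1 and TH2 cells, at -1.09 and -1.10. Summed CD8 T cell markers were at 16.2 to 41.4 CPM in WT and 144 to 219 CPM in Odc-/- Treg libraries, and at 20.7 to 26.8 and 173 to 338 CPM in the Dohh experiment. Zbtb16, which encodes PLZF of NKT cells, was at 0 to 3.13 CPM over all libraries and was called lower in Odc-/- TH2, TH17 and Treg cells, at counts of 0 to 27 reads a library, and higher in none of the 8 comparisons. Of the CD4+ T cell markers, none was higher: in each Dohh-/- subset 4 of 9 were lower, among them Cd4 at -4.65 to -3.60 and Trac, the constant region of the T cell receptor α chain, at -2.31 to -1.88. In Odc-/- cells Cd4 differed by -1.01 to -0.71 and 0, 4, 1 and 1 of the 9 markers were lower in TH1, TH2, TH17 and Treg cells. The part of these other cells in the NK receptor differences was not tested.

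**Figure D5:**
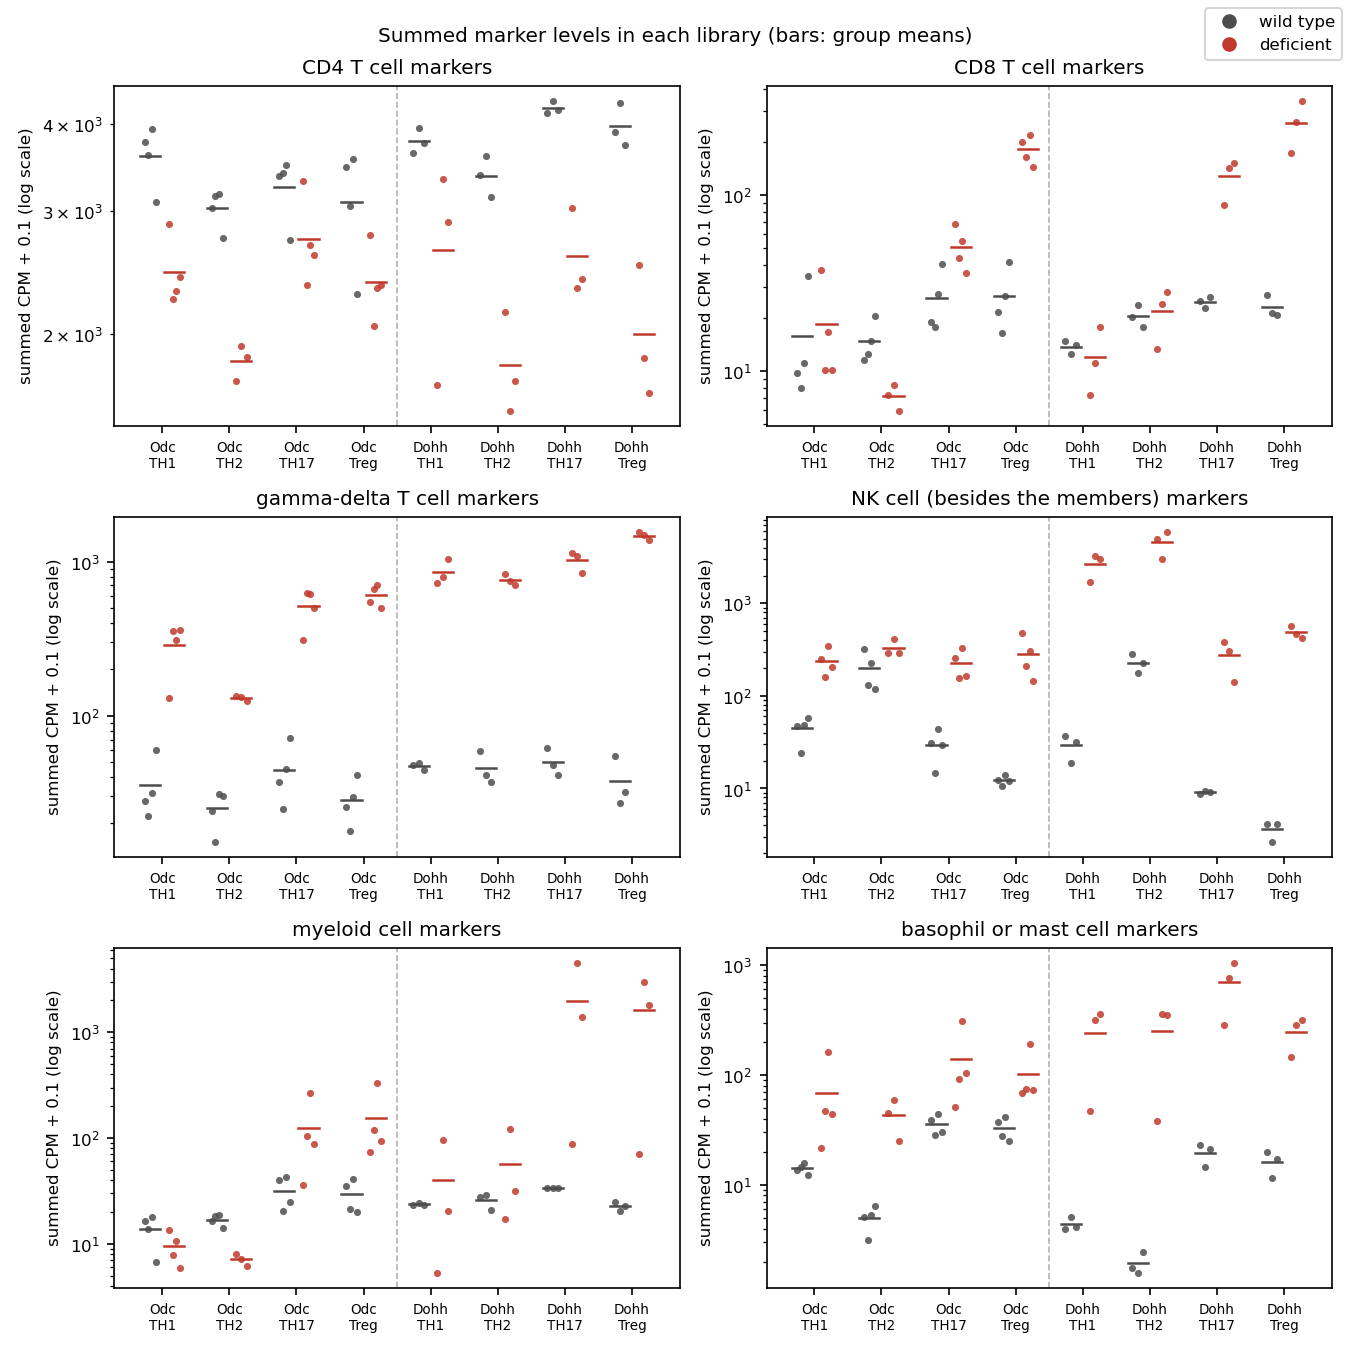
Summed CPM, plus 0.1, of the marker lists of 6 cell types in every library on a log axis, by experiment and subset. Each point is 1 library, grey for WT and red for deficient, and bars are group means. γδ T cell markers lie at 15.1 to 71.2 CPM in all WT and 125 to 702 CPM in all Odc-/- libraries, and myeloid markers reach 4469 CPM in Dohh-/- TH17 replicate 2.

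Markers of other lineages differed too. The 5 myeloid markers summed to 87.2, 4469 and 1392 CPM in Dohh-/- TH17 replicates 1, 2 and 3 and to 71.1, 3011 and 1793 CPM in Dohh-/- Treg replicates 1, 2 and 3, against 20.1 to 33.8 CPM in the WT libraries of these subsets. Klrk1 in the same libraries was at 239, 202 and 181 and at 309, 266 and 314 CPM. Leaving out the 4 libraries above 1000 CPM of myeloid markers left 1 Dohh-/- library in each of these subsets, whose spread was assumed to be that of the other groups, and in that fit the call of Klrb1c in TH17 was lost (edgeR adjusted p = 0.179) and the other 9 of 10 calls were not. In Odc-/- cells 3 of the 4 myeloid markers tested were called higher in TH17 and in Treg cells, with sums of 36.1 to 268.9 and 74.0 to 330.5 CPM against 20.1 to 42.4 and 19.8 to 40.8 CPM in WT. The 6 basophil or mast cell markers summed to 1.48 to 22.9 CPM in WT and 38.2 to 1034 CPM in Dohh-/- libraries, and 3.07 to 44.4 CPM in WT and 21.7 to 308 CPM in Odc-/- libraries, with 5 or 6 called higher in every comparison, but only 3 of them in the Odc and 2 in the Dohh experiment exceeded the cutoff in at least 3 WT libraries, and of those 2 were called in each Odc comparison and 1 or 2 in each Dohh comparison. All 5 B cell markers, 4 without Ms4a1, which exceeded the cutoff in 2 WT libraries, were called higher in Odc-/- TH1, TH2 and Treg cells, with sums of 90.3 to 319, 281 to 486 and 20.6 to 166 CPM against 6.54 to 38.2, 25.6 to 91.8 and 3.20 to 5.76 CPM in WT. The part of these cells was not tested either.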

How the data were processed

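Libraries of poly(A) RNA were made with a stranded kit and, per the labels and the study's methods, aligned to mm10 with STAR and counted per gene with featureCounts; tool versions, annotation release and strand setting are not given in the sources used here. The authors deposited whole-number read counts per gene, without normalization, in 1 table per experiment, and replicates were not pooled. Of 47937 gene IDs, 47224 were matched to the annotation for symbols and positions.

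From these counts, genes with low counts were removed with filterByExpr, leaving 13839 genes in the Odc and 13897 in the Dohh experiment. The CPM values use TMM-normalised library sizes, and TMM factors were 0.925 to 1.08 and 0.752 to 1.11. Each experiment was fitted as 8 groups with edgeR 4.0.16 (glmQLFit, glmQLFTest, R 4.3.3), with Benjamini-Hochberg adjustment over all genes tested, and a gene was called where the fold change exceeded 2 and the adjusted p was below 0.05. Odc and Dohh effects were compared in a joint fit of 14850 genes. Fold changes of genes with few counts are ratios of pooled reads with 95% counting intervals, or bounds against a floor of 3 reads over the group, and intervals cover counting error only. Tables and figures were made in Python 3.11.15. DESeq2 1.42.0 was an alternative, beside other size factors, filters and thresholds, a replicate block and leaving out each library. The same steps were run on simulated counts of 13839 genes for the Odc and 13897 for the Dohh design, with changes planted only in genes above a minimum mean count. For the Odc design they called 94.0% of 67 genes changed 3-fold and 97.0% of 66 changed 6-fold. For the Dohh design they called 88.1% of 67 and 95.5% of 66. In each design 4 unchanged genes were called. These rates do not cover genes of few reads such as Ncr1 and Klrb1c.

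The named genes are the members, the 3 genes of each related list called in most comparisons (ties by mean absolute fold change), the 3 genes, members left out, most like each member by Pearson r on log2 CPM with a prior count of 2, and cell type markers; other genes named were chosen after their values were seen. The members, gene lists and tests were chosen with earlier results of these data known. Within each group no 2 libraries agreed within sampling noise (lowest chi-square per degree of freedom 2.61). Libraries with the same number in WT and deficient groups deviated together (r over 0.1) in 6 of 15 pairs in the Odc and 1 of 12 in the Dohh experiment, so these numbers were not taken to pair WT with deficient libraries. Same-numbered WT libraries of different subsets did so in 24 of 24 pairs in the Odc and 14 of 18 in the Dohh experiment. Same-numbered deficient libraries did so in 20 of 21 (Odc) and 13 of 18 (Dohh) pairs. In the Odc experiment the numbers were thus taken to pair libraries across subsets within each genotype. The values given are from the fit without a block. WT calls changed by a block shared with deficient libraries are given beside the WT subset comparison. Comparisons between deficient subsets left this pairing out, and their calls with a block were not examined. No column holds Odc-/- TH2 replicate 1, which was not analysed here.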

Additional observations from a re-analysis of the deposited data

Results flagged for a closer look

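Single libraries stood apart from their group in 2 of 41 combinations of a member and a group of 4 libraries with any spread, against the roughly 1 in 20 that chance gives; groups of 3 were not tested. Nkg7 was at 283 CPM in Odc experiment WT TH1 replicate 4 and at 179 to 195 CPM in the other WT TH1 libraries. Ncr1 was at 0.106 CPM, a single read, in WT Treg replicate 1 of the same experiment and at 0 in the others.

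The genotype effect differed between the 4 subsets for 5 members in the Odc experiment (34.8% of all genes), Klrb1c among them although only deficient libraries let it pass the filter, with edgeR adjusted p of 1.11e-07 for Klrk1, 9.39e-07 for Klrd1, 0.000925 for Klrc1, 0.000477 for Klrb1c and 7.32e-05 for Nkg7. In the Dohh experiment (17.9% of all genes) it differed for Klrk1 (edgeR adjusted p = 0.00218) and Nkg7 (0.0062), and both calls were lost without replicate number 2, at 0.125 and 0.0745, and that of Nkg7 without number 1, at 0.0538. The Dohh effect minus the Odc effect, in TH1, TH2, TH17 and Treg cells, was 2.72, 2.39, 2.47 and 1.21 on the log2 scale for Klrk1, 2.87, 2.95, 1.92 and 1.13 for Klrd1, 2.66, 3.57, 2.65 and 2.49 for Klrc1 and 2.45, 3.29, 2.22 and 1.32 for Nkg7.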

How the results depend on the processing

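Of 647 member values of deficient against WT cells under the alternatives, 617 kept their direction and side of the threshold, 20 lost and 10 gained the threshold, and 0 turned direction. The same held for 69 of 72 subset interactions (3 lost), 184 of 192 Dohh minus Odc differences (8 lost) and 295 of 312 WT subset differences (9 lost, 2 gained, 6 turned). With a mean count of at least 50 required, which removes members of few reads, 1, 0 and 2 members were called in Odc-/- TH1, TH2 and TH17 cells in place of 3, 1 and 4. With the 2-fold change itself as the tested hypothesis (glmTreat), or with only both groups compared in the fit, 0 were called in TH2 and 2 in TH17. Over all comparisons glmTreat lost 5 member calls. With the adjusted p alone, 3 were called in TH2. The shares of all genes called under these alternatives were not computed, so the counts show only how the member calls moved. Leaving out single libraries gave 1 to 3 members in Odc-/- TH2, and leaving out replicate numbers gave 0 to 2 Dohh interactions in place of 2. The replicate block was shared by same-numbered WT and deficient libraries, although the numbers were not taken to pair these. It kept the members called at 3, 1, 4 and 6 in Odc-/- and 5, 4, 5 and 5 in Dohh-/- TH1, TH2, TH17 and Treg cells. The interactions stayed at 5 and 2 with it, and it gave 25 WT subset calls in place of 23 (Odc) and 18 in place of 17 (Dohh). A block within genotype, chosen after seeing the data as was the removal of libraries with high myeloid markers, gave 23, 17, 5 and 2. Uncalled WT differences turned sign: Klrc1 TH1 minus TH17 in the Odc experiment (-0.01) was 0.02 with RLE size factors and -0.08 to 0.05 over left-out numbers, Nkg7 TH2 minus Treg (-0.05) was -0.23 to 0.14 in the Odc and (0.14) -0.21 to 0.29 in the Dohh experiment; the cause was not tested. Depth limits Ncr1 and Klrb1c, which rest on 0 to 9 reads in each WT library.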
